A study of Mus musculus with 6 samples.

Results

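The cells described here are the pericyte-like cells of the uninjured (naïve) mouse cortex, compared between the NG2 line and the Tbx18 line. They were taken by the cluster number that the authors' integration of both naïve libraries gave each cell: clusters 0, 1, 2, 3, 5 and 8 were used, and the line came from the library of the cell. These deposited numbers are not those of the published figure. In the paper clusters 2, 3, 5 and 8 are smooth muscle cells, vascular-genic pericytes, endothelial cells and mature oligodendrocytes. Here smooth muscle-like cells are cluster 4, endothelial-like cells cluster 10 and oligodendrocyte-like cells cluster 12. These clusters hold 3467 of the 4992 naïve cells, with 3194 of 4306 NG2-tdT+ cells (74.2%) and 273 of 686 Tbx18-tdT+ cells (39.8%). In both lines a tamoxifen-inducible Cre switches on the red reporter tdTomato from the Ai14-flx allele, so a cell that had driver activity at the time of tamoxifen, and its progeny, stays red. In the NG2-Cre-ERT2/Ai14-flx mice the recombinase is carried by a transgene built on Cspg4, the gene of the NG2 proteoglycan, and in the Tbx18-CreERT2/Ai14-flx mice it sits in a targeted allele of Tbx18, a T-box transcription factor. The mice were 3 to 4 months old, received tamoxifen at 100 mg/kg on 4 consecutive days, and were taken 10 days later with no injury. For each genotype 10 cortices of 6 animals, 5 female and 5 male cortices, were pooled, sorted for tdT+/DAPI- cells and made into 1 droplet library.

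Pericytes are mural cells that lie within the basement membrane of capillaries and contact the endothelium. They depend on PDGF-B from endothelial cells acting on the receptor Pdgfrb, and in the brain they take part in keeping the blood-brain barrier and in capillary tone. No single gene marks them alone, so Cre lines driven by different mural genes are used to label them, and each line also labels other cells: smooth muscle cells in both, and cells of the oligodendrocyte lineage in the NG2 line.

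The values are counts of unique molecular identifiers (UMIs), which stand for captured RNA molecules. They were summed over the cells of a line and given as CPM, which is the count scaled to a common total of all UMIs of those cells. The NG2 sum holds 12650426 UMIs and the Tbx18 sum 1530972 UMIs, so 1 UMI is worth 0.0790 CPM in the first and 0.653 CPM in the second. The median cell had 3836 UMIs (range 476 to 14189) and 1990 genes in the NG2 line, and 5365 UMIs (range 364 to 15152) and 2346 genes in the Tbx18 line. The median share of mitochondrial transcripts was 2.57% and 2.35%. The libraries shared 0 cell barcodes. With 1 pooled library a side there is no replicate: no test was made, and every interval below is a 95% exact interval of counting error alone, which says nothing of how animals or sorts vary. A difference between the libraries therefore cannot be told apart from a difference between these pools, sorts or library preparations.

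Pericyte markers were abundant in both lines, and none of the 14 listed was 2-fold apart. Of all genes with at least 10 CPM, 3.72% were 2-fold higher and 2.05% 2-fold lower in the Tbx18 line. For a list of this size, none is near that background. Pdgfrb was at 1587 CPM in NG2-tdT+ cells (1565 to 1609) and 1567 CPM in Tbx18-tdT+ cells (1505 to 1631). Rgs5, a regulator of G-protein signaling typical of mural cells, was at 7709 and 8653 CPM, and the potassium channel regulator Abcc9 at 1485 and 1654 CPM. Within this range 6 of the 14 were lower and 1 was higher in the Tbx18 line in all 6 clusters. Of all genes with at least 10 CPM, 12.5% were lower in all 6. The list summed to 49446 CPM in the NG2 line and 41504 CPM in the Tbx18 line. Vtn, which encodes vitronectin, was at 18565 CPM in the NG2 line (12569 to 23345 across clusters) and 12177 CPM in the Tbx18 line (7388 to 17647), 1.52-fold (1.5 to 1.55) and lower in the Tbx18 line in 6 of 6 clusters. Its log2 ratio (Tbx18 line over NG2 line, 1 CPM added here and below) was -0.61, and -0.18 once the median ratio of genes of like length was subtracted. Ndufa4l2 was at 1800 and 1157 CPM, Higd1b at 2145 and 1419 CPM, and the ATP-sensitive potassium channel subunit Kcnj8 at 1502 and 1036 CPM. The P-type ATPase Atp13a5 went the other way, at 2207 CPM in the NG2 line and 2929 CPM in the Tbx18 line, and was higher in the Tbx18 line in 6 of 6 clusters.

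Listed markers of other cells were lower than those of pericytes but not absent. Smooth muscle Acta2 was at 211 and 239 CPM, and none of the 12 smooth muscle genes with at least 10 CPM was 2-fold apart. Over all genes at this limit 3.72% were 2-fold higher and 2.05% 2-fold lower, so this too is near the background. The 14 listed smooth muscle genes summed to 4458 CPM in the NG2 line and 4112 CPM in the Tbx18 line. Cluster 5 had the highest sums, at 13085 and 9100 CPM, against 3009 to 4075 and 2594 to 3287 CPM in the other clusters. The 16 endothelial genes summed to 749 CPM in the NG2 line and 765 CPM in the Tbx18 line. Cldn5, an endothelial tight junction gene, had 12 counts in the NG2 line and 25 in the Tbx18 line, 0.949 and 16.3 CPM, and was found in 0.376% and 5.86% of the cells. The 9 microglia genes summed to 13.4 CPM in the NG2 line and 24.2 CPM in the Tbx18 line. Of these markers, C1qa had 3 and 0 counts, Csf1r 6 and 1, and Tyrobp 16 and 0. The NG2 level of each lay under 1.96 CPM, the level of 3 Tbx18 counts, so a difference was not detectable. P2ry12, the only listed microglia gene with at least 10 CPM, had 81 and 25 counts, 6.40 and 16.3 CPM.

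The 6 clusters were filled in different proportions. Cluster 0 was the largest in both lines, with 30.3% of the NG2 cells (28.7 to 31.9) and 24.2% of the Tbx18 cells (19.2 to 29.7). Cluster 1 held 20.01% (18.6 to 21.4) and 13.2% (9.41 to 17.8), and cluster 3 held 14% (12.8 to 15.2) and 9.52% (6.32 to 13.6). The Tbx18 cells lay more often in cluster 5, at 10.5% (9.42 to 11.6) and 17.2% (12.9 to 22.2), and in cluster 8, at 6.92% (6.06 to 7.86) and 12.8% (9.10 to 17.4). Cluster 2 held 18.3% (17.0 to 19.7) and 23.1% (18.2 to 28.5). The intervals were apart for clusters 1, 5 and 8 and overlapped for clusters 0, 2 and 3. In absolute numbers the smallest Tbx18 group was 26 cells, in cluster 3, so values of single clusters in the Tbx18 line rest on few cells.

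**Figure D1:**
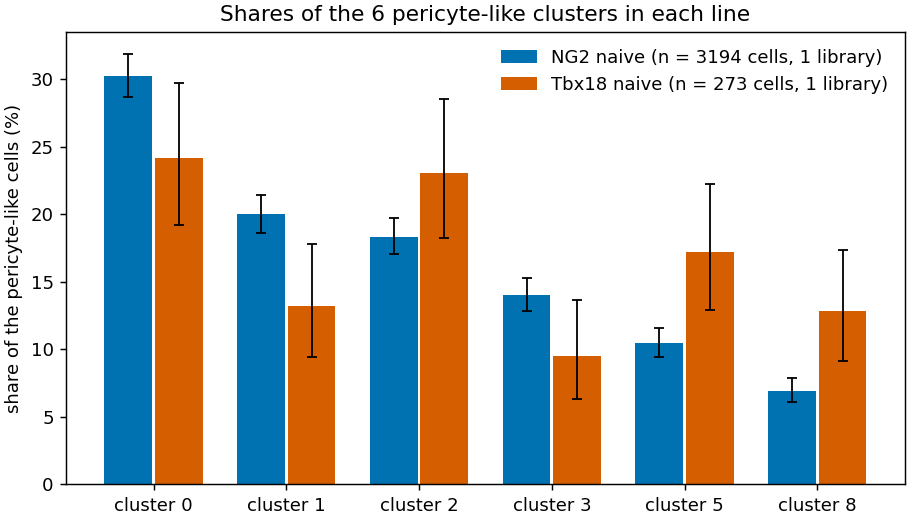
Share of each line's pericyte-like cells (%, y axis) in each of the 6 clusters (x axis). Bars are the share in 1 library, from 3194 NG2-tdT+ and 273 Tbx18-tdT+ cells, and error bars are exact Clopper-Pearson intervals. The Tbx18 bars stand above the NG2 bars in clusters 2, 5 and 8 and below them in clusters 0, 1 and 3.

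The driver genes themselves differed little in these cells. NG2-tdT+ cells had 809 CPM of Cspg4 (793 to 825) and Tbx18-tdT+ cells 726 CPM (684 to 770), 1.11-fold (1.05 to 1.19). By cluster it ran from 665 to 923 CPM in the NG2 line and from 688 to 888 CPM in the Tbx18 line, lower in the Tbx18 line in 5 of 6 clusters. The transcript of Tbx18 had 177 CPM (169 to 184) in NG2-tdT+ cells and 127 CPM (110 to 146) in its own line, 1.39-fold lower there (1.20 to 1.62) and lower in 6 of 6 clusters. So both drivers were transcribed in the pericyte-like cells of both lines, and the transcript of neither was higher in the Tbx18 line. After each cell was thinned to 1000 UMIs, Cspg4 was seen in 53.1% of NG2 and 47.2% of Tbx18 cells, and Tbx18 in 15.4% and 9.06%. Without thinning these shares were 89.4% and 82.1% for Cspg4, and 45.2% and 41.4% for Tbx18. In the endothelial-like cells of cluster 10, which stand here as the comparison class, the thinned share of Cspg4 was 5.97% in the NG2 and 1.59% in the Tbx18 library, and its level 122 and 4.39 CPM. For Tbx18 it was 0 of 67 and 0 of 63 cells, which allows shares of up to 4.48% and 4.76% when 3 cells are taken as the limit, and up to 5.36% and 5.69% by the exact interval. Those cells had medians of 5264 and 6996 UMIs. The ratio of both drivers moved when the cells holding a UMI of another cell type's marker were removed: the log2 ratio went from -0.16 to 0.0101 for Cspg4 and from -0.48 to -0.78 for Tbx18.

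Both drivers lie on chromosome 9 of the mm10 genome. Cspg4 spans chr9:56865033-56899870 on the plus strand and Tbx18 chr9:87702800-87731260 on the minus strand in the GENCODE annotation used here. The start regions are shown because each Cre line is built on 1 of these genes, and because Odf3l1, the gene next to Cspg4, was the neighbor that separated the lines. Each run holds 250 bases before the start that RefSeq gives on build GRCm38.p6 and, in capitals, the first 50 transcribed bases, read 5′ to 3′ on the strand of the gene. The Cspg4 run is chr9:56864854-56865153 (plus), the Odf3l1 run chr9:56853765-56854064 (minus) and the Tbx18 run chr9:87731211-87731510 (minus). The RefSeq starts of Cspg4 and Odf3l1 lie inside the longer spans that GENCODE gives these genes. The Odf3l1 run therefore does not lie at the end of its GENCODE span that faces Cspg4.

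Cspg4: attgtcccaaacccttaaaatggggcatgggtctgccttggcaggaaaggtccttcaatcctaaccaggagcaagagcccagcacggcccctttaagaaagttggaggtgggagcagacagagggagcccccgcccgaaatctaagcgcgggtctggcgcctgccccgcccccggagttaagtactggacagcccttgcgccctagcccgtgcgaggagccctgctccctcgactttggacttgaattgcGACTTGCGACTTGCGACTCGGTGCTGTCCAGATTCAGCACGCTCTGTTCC
Odf3l1: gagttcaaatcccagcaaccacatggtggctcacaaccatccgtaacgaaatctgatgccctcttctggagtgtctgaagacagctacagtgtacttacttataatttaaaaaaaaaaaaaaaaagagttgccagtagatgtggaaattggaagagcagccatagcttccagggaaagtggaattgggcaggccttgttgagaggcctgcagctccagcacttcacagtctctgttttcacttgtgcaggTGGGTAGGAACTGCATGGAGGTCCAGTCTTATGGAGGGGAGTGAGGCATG
Tbx18: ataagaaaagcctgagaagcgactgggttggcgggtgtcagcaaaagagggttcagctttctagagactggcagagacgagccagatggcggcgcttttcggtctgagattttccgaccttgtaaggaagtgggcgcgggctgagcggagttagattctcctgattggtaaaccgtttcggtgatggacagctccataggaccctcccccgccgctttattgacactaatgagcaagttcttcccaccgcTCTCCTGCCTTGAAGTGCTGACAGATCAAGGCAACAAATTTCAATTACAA

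The genes around Cspg4 were examined because 1 of the lines carries a transgene built on that gene. Odf3l1, whose annotated span chr9:56848659-56864679 ends 353 bases before that of Cspg4 begins, had 158 counts in NG2-tdT+ pericyte-like cells and 0 in Tbx18-tdT+ cells. Its level was 12.5 CPM (10.6 to 14.6) against 0 CPM (up to 2.41), at least 6.37-fold lower in the Tbx18 line when 3 counts are taken as the floor of the library at 0, with a lower exact limit of 5.12-fold. In the NG2 line it was present in all 6 clusters, at 5.75 to 19.9 CPM, and in the Tbx18 line it had no count in any. It was seen in 1.37% of thinned NG2 cells and 0 of 254 thinned Tbx18 cells, which allows a share of up to 1.18% by 3 cells and 1.44% by the exact interval, so at this depth the thinned shares were not told apart. The unthinned shares were 4.54% and 0 of 273 cells, and the thinned share in NG2 endothelial-like cells was 0 of 67. In NG2 smooth muscle-like cells (cluster 4) it had 16 counts, 4.65 CPM, against 0 in the Tbx18 library. There 3 Tbx18 counts are 7.39 CPM, so a difference was not detectable in these cells either. The product is named for its likeness to an outer dense fiber protein of sperm.

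Imp3, a component of the machinery that processes ribosomal RNA, begins 72.4 kb beyond the start of Cspg4. It was at 409 CPM (398 to 420) in the NG2 line and 193 CPM (171 to 216) in the Tbx18 line, 2.12-fold lower (1.89 to 2.39) and lower in 6 of 6 clusters. It was under 2-fold, at a log2 ratio of -0.71, once ratios were centered on gene length, and at -0.99 with the NG2 clusters weighted by the Tbx18 composition. Thinned cells with a UMI of Imp3 made up 33.8% of the NG2 and 18.9% of the Tbx18 cells (73.7% and 54.6% unthinned). The same direction held in smooth muscle-like cells, at 155 and 69.0 CPM, and in endothelial-like cells, at 206 and 83.5 CPM. Besides Cspg4, 18 genes had any part within 500 kb of it. Among those with at least 10 CPM, only Odf3l1 and Imp3 were 2-fold lower with 1 CPM added, and none was 2-fold higher. Over all genes with at least 10 CPM, 2.05% were 2-fold lower and 3.72% 2-fold higher. Without the added 1 CPM, Commd4 was 2.00-fold lower and Man2c1os (7.83 and 15.7 CPM) 2.00-fold higher. Snx33 (61.1 and 38.5 CPM), Snupn (36.7 and 25.5 CPM) and Commd4 (44.4 and 22.2 CPM) lay on the side of Odf3l1 and Imp3. Ptpn9 (412 and 539 CPM) and Peak1 (121 and 211 CPM) lay on the other. Near Tbx18 the only listed gene was Cep162, at 39.5 and 26.8 CPM.

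**Figure D2:**
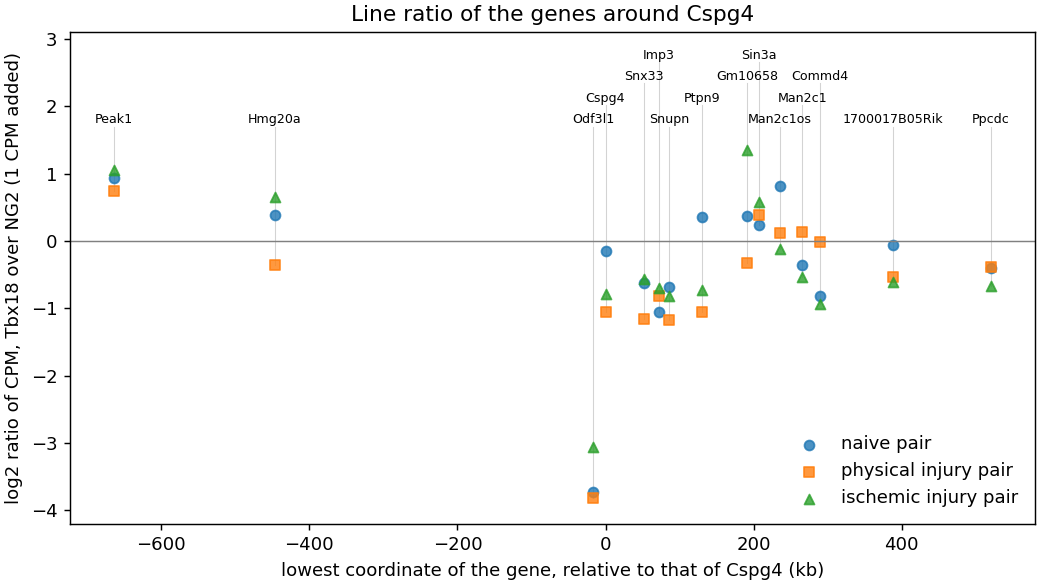
The log2 ratio of CPM (Tbx18 line over NG2 line, 1 CPM added, y axis) of genes around Cspg4 against the distance of their lowest coordinate from that of Cspg4 (kb, x axis), each mark 1 pair of libraries. The naïve (blue circles), physical injury (orange squares) and ischemic injury (green triangles) pairs are of the pericytes by the clusters of the separate line tables, and Odf3l1 is lowest in each, at -3.73, -3.81 and -3.06.

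Across the transcriptome these pericyte-like cells of the 2 lines were close. They were taken by clusters of a joint integration, which groups cells of like expression, so part of this closeness was set by the selection. It held 39.8% of the Tbx18-tdT+ cells, and the remaining cells of the lines were not compared in this count. Of the 4352 genes with at least 50 CPM in the higher library, 77.8% lay within 1.5-fold, with a median log2 ratio of -0.01 (SD over genes 0.51). At least 2-fold higher in the Tbx18 line were 110 genes (2.53%), and at least 2-fold lower 29 (0.666%). With TMM factors, which scale to the typical gene in place of the library total, the split was 80 higher and 55 lower, and the median gene moved to -0.11. Without the cells that hold a UMI of another cell type's marker, which leaves fewer UMIs, the split was 195 higher and 92 lower. Of the 110 genes, 84 were higher in the Tbx18 line in all 6 clusters (over all genes, 14.6% were), and of the 29 genes, 25 were lower in all 6 (over all genes, 18.5%). At the edge of the 2-fold limit, Mitf (32.7 and 67.3 CPM) was just inside and Rassf3 (38.4 and 77.7 CPM) just outside on the high side, and Emp3 (211 and 105 CPM) and Lsm7 (57.2 and 28.1 CPM) on the low side.

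Among genes with at least 50 CPM the largest ratio belonged to Gm48099, a long intergenic noncoding RNA at chr14:19271274-19282822. It was at 60.8 CPM in the NG2 line (35.7 to 87.9 across clusters) and 710 CPM in the Tbx18 line (479 to 1120), 11.7-fold (10.6 to 12.8). The cluster ranges did not overlap. It was seen in 5.64% of thinned NG2 and 44.5% of thinned Tbx18 pericyte-like cells (19.7% and 78.0% unthinned). The other cells of the same libraries showed the same split, at 58.5 and 734 CPM in smooth muscle-like and 108 and 1232 CPM in endothelial-like cells, so it was not particular to pericyte-like cells.

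Several protein-coding genes followed. Upk3bl, a uroplakin family gene, was at 11.1 and 79.7 CPM, 7.20-fold higher in the Tbx18 line (5.60 to 9.25). Il31ra, which encodes a receptor subunit of the cytokine interleukin-31, was at 10.5 and 74.5 CPM, 7.08-fold (5.47 to 9.16). Polr1b, a core subunit of RNA polymerase I, was at 14.5 CPM (13.0 to 19.9 across clusters) and 76.4 CPM (58.7 to 90.7), 5.25-fold (4.13 to 6.66). These genes, too, were higher in the Tbx18 library outside the pericyte-like clusters, by log2 ratios of 2.24, 2.36 and 2.09 in smooth muscle-like cells and 2.32, 2.40 and 1.69 in endothelial-like cells. Gm47283, on the Y chromosome, was at 29.7 and 199 CPM, and Gm20721 at 25.2 and 159 CPM. Rpl10-ps3, Gm11808, Rpl9-ps6 and Gm20594 were 3.38-fold to 5.51-fold higher, and their counts are uncertain where reads of near-identical copies can be split between genes.

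A pair of the 12 differed between cell classes. Rasd1, a small Ras-like G protein induced by glucocorticoids, was at 13.2 CPM (2.60 to 35.9 across clusters) in the NG2 line and 54.2 CPM (6.75 to 109) in the Tbx18 line, 4.11-fold (3.12 to 5.37). In smooth muscle-like cells it was much more abundant and leaned the other way, at 644 and 520 CPM. Pde10a, a phosphodiesterase that breaks down cAMP and cGMP, was at 47.4 and 159 CPM in pericyte-like cells, 3.36-fold (2.88 to 3.91), and at 10.6 and 11 CPM in endothelial-like cells. In the latter 1 count is 2.65 CPM in the NG2 and 2.20 CPM in the Tbx18 library, so the ratio of Pde10a there rests on few counts. Of the 110 genes as a whole, 99 were also higher in the Tbx18 library in smooth muscle-like cells (51.6% of all genes with at least 50 CPM were), 85 in endothelial-like cells (42.0%) and 79 in both (28.6%), 25 of them by at least 2-fold in both (0.827%). Of the 29 lower genes, 25 were lower in both (34.9%) and 10 by at least 2-fold in both (0.758%).

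**Figure D3:**
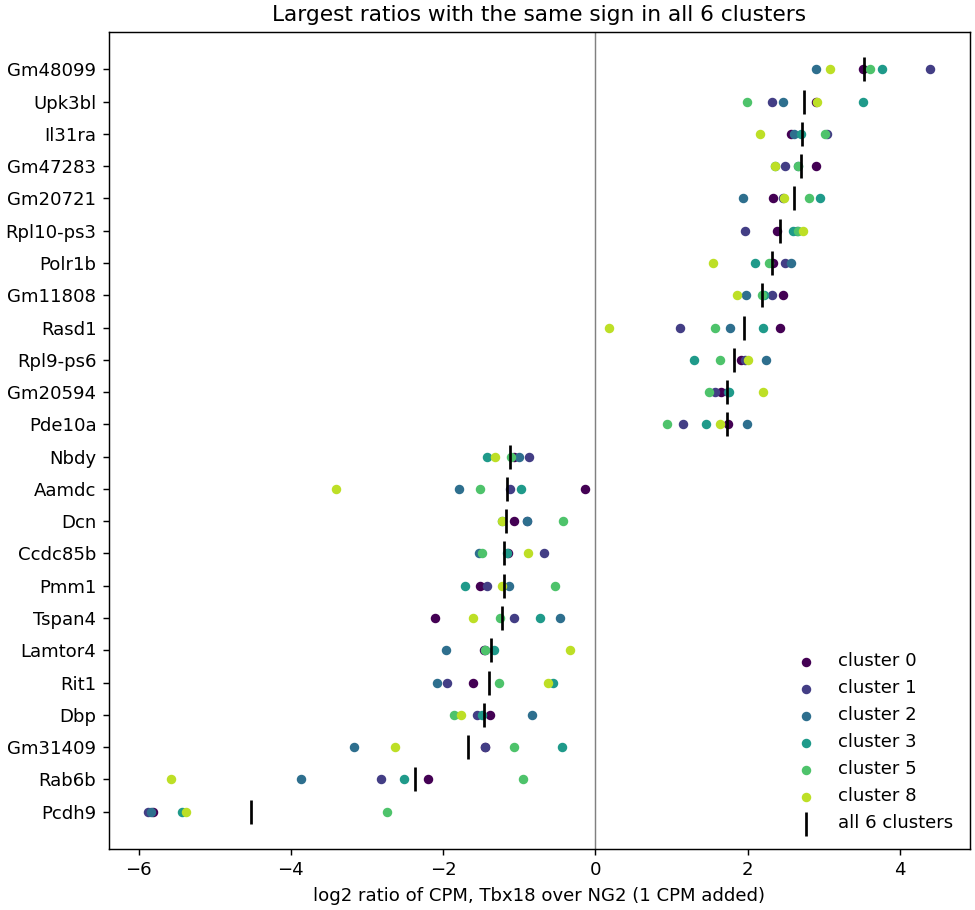
The log2 ratio of CPM (Tbx18 line over NG2 line, 1 CPM added, x axis) of the 12 largest ratios each way (y axis), among genes with at least 50 CPM in the higher library and the same sign in all 6 clusters. Dots are single clusters and the bar is the sum over them: Gm48099 is highest at 3.52 and Pcdh9 lowest at -4.53, and clusters spread widest where the Tbx18 count is near 0.

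Among genes with at least 50 CPM and the same sign in all 6 clusters, the lowest ratio was that of Pcdh9, a protocadherin adhesion gene. It had 660 counts in NG2-tdT+ and 2 in Tbx18-tdT+ pericyte-like cells, 52.2 and 1.31 CPM, 39.9-fold lower in the Tbx18 line (11 to 330.5). Its level ran from 40.7 to 57.7 CPM across the NG2 clusters and from 0 to 7.00 CPM across the Tbx18 clusters. NG2 smooth muscle-like cells had 24.1 CPM and NG2 endothelial-like cells 47.6 CPM, while the oligodendrocyte-like cells of cluster 12 had 7130 CPM. The share of thinned cells with a Pcdh9 UMI was 5.48% in NG2 pericyte-like cells (4.71 to 6.33), 1.53% in NG2 smooth muscle-like cells (0.562 to 3.29) and 4.48% in NG2 endothelial-like cells (0.933 to 12.5). In the Tbx18 pericyte-like cells it was 0 of 254, which allows up to 1.18% by 3 cells and 1.44% by the exact interval. The unthinned shares were 17.7%, 17.8%, 25.0% and 0.733%, at medians of 3836, 8661, 5264 and 5365 UMIs. The share in NG2 pericyte-like cells was above that in smooth muscle-like cells and within the interval of endothelial-like cells.

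Mbp, which encodes myelin basic protein, was at 19 CPM in the NG2 line (17.3 to 21 across clusters) and 1.31 CPM in the Tbx18 line (0 to 3.50), 14.5-fold lower there (3.98 to 121). Oligodendrocyte-like cells had 3437 CPM, NG2 smooth muscle-like cells 10.2 CPM and NG2 endothelial-like cells 23.8 CPM. Thinned cells with a UMI of Mbp made up 2.13% of NG2 pericyte-like cells (1.66 to 2.70), 1.27% of NG2 smooth muscle-like cells (0.414 to 2.94) and 1.49% of NG2 endothelial-like cells (0.0378 to 8.04), against 0 of 254 Tbx18 pericyte-like cells. The unthinned shares were 6.98%, 8.65%, 11.8% and 0.733%. The intervals of the 3 NG2 classes overlapped, so the share in NG2 pericyte-like cells was not told apart from that in the endothelial-like cells.

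The rest of the myelin list moved with it. Of its 7 genes, 4 had at least 10 CPM, and all 4 were 2-fold lower in the Tbx18 line. Their median log2 ratio was -3.03, where the median of all 9448 genes at this limit was -0.02 and 2.05% of them were 2-fold lower. The list summed to 90.6 and 13.7 CPM. Mag was at 11.7 and 0.653 CPM, and Mog had 130 and 0 counts, 5.24-fold lower with 3 counts taken as the floor of the library at 0. The OPC list summed to 35.1 and 1.96 CPM, with Olig1 at 92 and 0 counts and Ptprz1 at 87 and 0. What part of any other difference moves with these transcripts was not tested. The hemoglobin counts sat in few cells: 376 counts of Hba-a1 came from 0.125% of the NG2 cells, against 0 counts in the Tbx18 line.

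Rab6b, a Rab GTPase of retrograde Golgi transport, was the next of the lower genes, at 51.6 CPM (46.5 to 56.3 across clusters) and 9.14 CPM (0 to 24.5), 5.64-fold (3.34 to 10.4). It was lower in smooth muscle-like cells as well, at 66.3 and 27.1 CPM. Most of the remaining lower genes had ratios between 2 and 3. Rit1, another small GTPase, was at 70.5 and 26.1 CPM, Lamtor4, a subunit of the lysosomal Ragulator complex, at 74.1 and 28.1 CPM, and the tetraspanin Tspan4 at 105 and 44.4 CPM. Dcn, the proteoglycan decorin of fibroblasts, was at 63.1 CPM (5.03 to 87.5) and 27.4 CPM (3.50 to 40.5). It was the only 1 of 6 fibroblast genes at 10 CPM that was 2-fold apart. Over all genes at this limit 2.05% were 2-fold lower and 3.72% 2-fold higher. Pmm1, Ccdc85b, Aamdc, Nbdy and the noncoding Gm31409 completed the 12, at 2.22-fold to 3.32-fold.

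Dbp, a clock-controlled transcription factor of the PAR bZIP family, was lower in the Tbx18 line, at 370 CPM (295 to 457) and 133 CPM (80.5 to 173), 2.78-fold (2.41 to 3.21), and the cluster ranges did not overlap. Other genes of the circadian clock were then looked up, so this group was chosen after values were seen. The clock is a loop in which Arntl, paired with Clock or Npas2, activates Per, Cry and Nr1d genes, whose products repress the loop. The same pair also activates Dbp. Nr1d1 was lower with Dbp, at 293 CPM (259 to 345) and 179 CPM (169 to 201), in 6 of 6 clusters and with ranges apart. The activators were higher: Npas2 at 7.19 and 35.9 CPM, 4.99-fold (3.51 to 7.06) and higher in 6 of 6 clusters, Arntl at 15.5 and 45.7 CPM, 2.95-fold (2.21 to 3.90) and higher in 5 of 6, and Clock at 94.4 and 170 CPM. Per1 was at 57.4 and 81.0 CPM, Per2 at 23.6 and 37.2 CPM and Cry1 at 52.6 and 82.9 CPM. Of the 14 of 17 clock genes with at least 10 CPM, 2 were 2-fold higher and 1 was 2-fold lower. Among all genes at this limit, 3.72% were 2-fold higher and 2.05% 2-fold lower. Once the median ratio of genes of like length was subtracted, the log2 ratio was -1.08 for Dbp, 1.65 for Npas2 and 1.14 for Arntl. The hour of collection is not in the labels, and its part in these values was not tested.

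The ratio followed the length of the gene. Genes with a position in the annotation were cut into 10 equal groups of 433 by the genomic span from first to last base, from group 1 (shortest) to group 10 (longest). The median log2 ratio was -0.41 in group 1 (up to 4.33 kb) and reached 0.62 in group 10, and 18.7% of the shortest but 95.2% of the longest genes were higher in the Tbx18 line. Genes over 100 kb took 16.1% of the UMIs in the NG2 and 23.1% in the Tbx18 pericyte-like cells. This was seen in every cluster, with medians of 0.33 to 0.69 in group 10. It was also seen when the cells of each line were split evenly by depth: among its shallow, middle and deep cells the share was 14.1%, 15.3% and 17.6% in the NG2 line and 20.6%, 21.2% and 24.7% in the Tbx18 line. Smooth muscle-like cells of the same libraries had shares of 14.2% and 17.3%, and endothelial-like cells 14.1% and 18.8%.

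Length therefore ran alongside the counts given above. Of the 110 higher genes, 109 had a position and 55 of these were over 100 kb, against 1 of the 29 lower genes and 856 of the 4330 genes tested that had a position. Under 10 kb were 18 of the higher and 17 of the lower genes, against 966 of the 4330. Whether both libraries were counted with the same software version and the same setting for intron reads is not given in the sources used here, and its part in these shares and in genes at 0 on 1 side was not tested. Long genes of contractile and cytoskeletal signaling were among the most abundant. Dlc1, a GTPase-activating protein with a span of 385 kb, was at 2375 and 5607 CPM, 2.36-fold (2.30 to 2.42). Prkg1, the cGMP-dependent kinase through which nitric oxide relaxes mural cells, spans 1201 kb and was at 1504 and 3141 CPM. Camk1d, a calcium/calmodulin-dependent kinase of 421 kb, was at 306 CPM (234 to 440 across clusters) and 1001 CPM (680 to 1539), 3.27-fold (3.08 to 3.47). Once the median ratio of genes of like length was subtracted, the log2 ratio of Dlc1 went from 1.24 to 0.53, of Prkg1 from 1.06 to 0.35 and of Camk1d from 1.70 to 0.99, and 65 genes were 2-fold higher and 16 lower.

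**Figure D4:**
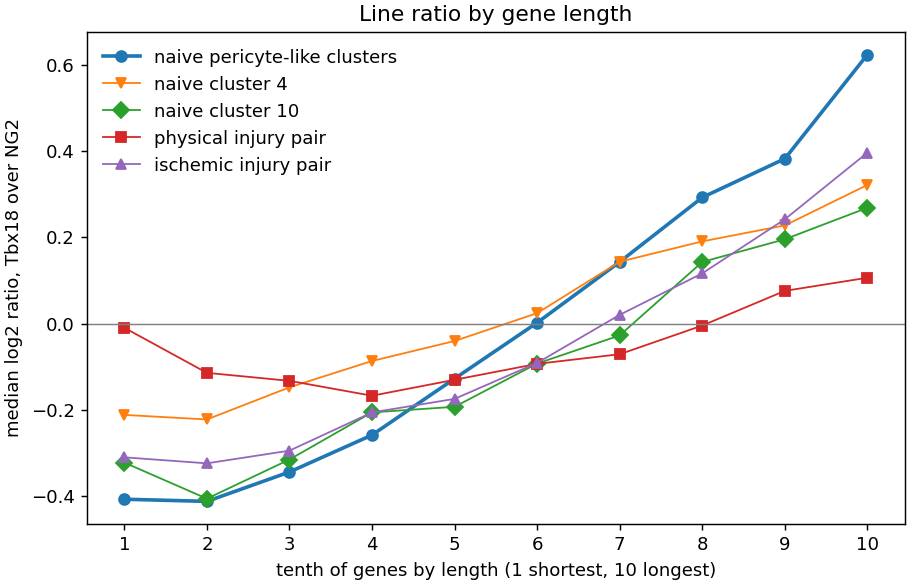
Median log2 ratio of CPM (Tbx18 line over NG2 line, y axis) in 10 equal groups of genes ordered by genomic span (x axis). Lines are the naïve pericyte-like cells, naïve clusters 4 and 10, and the physical and ischemic injury pairs. The pericyte-like line climbs from -0.41 to 0.62 and the ischemic pair from -0.31 to 0.40. The physical pair falls from -0.01 in group 1 to -0.17 in group 4 and ends at 0.11 in group 10.

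Gene lists were read against the background of 3.72% of genes 2-fold higher and 2.05% 2-fold lower at 10 CPM. For PDGF and Notch genes, whose signaling attaches pericytes to vessels, only transcript levels were read. None of the 12 PDGF and Notch genes was 2-fold apart, which for a list of this size is near the background. The list median was 0.05 and the range -0.44 to 0.90, and Notch3 was at 914 and 1090 CPM. Notch2, at 28 and 52.9 CPM, came nearest. The 18 TGF-beta and BMP genes (median 0.13) and the 8 VEGF and angiopoietin genes (median 0.26) also had none. Among the 14 mural transcription factors (median -0.14), Ebf1 was at 1459 and 2346 CPM and Foxd1 at 479 and 361 CPM, both with the same sign in 6 of 6 clusters. The 12 transporters typical of brain pericytes had a median of 0.03, with the folate carrier Slc19a1 at 760 and 476 CPM.

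Among matrix and contractile genes, 3 were past 2-fold. Of 17 basement membrane genes (median 0.20), fibronectin (Fn1) alone passed, at 5.30 CPM (3.12 to 7.81 across clusters) and 26.1 CPM (7.34 to 40.2), 4.93-fold (3.25 to 7.41) and higher in 6 of 6 clusters. It was far more abundant in endothelial-like cells, at 688 and 903 CPM. Collagen IV (Col4a1) was at 848 and 929 CPM, and laminin alpha-2 (Lama2) at 664 and 1204 CPM. Of 16 contractile signaling genes (median 0.16), Prkg1 and the endothelin receptor Ednrb passed. Ednrb was at 22.4 CPM (7.48 to 32.2) and 48.3 CPM (14.7 to 80.4), 2.15-fold (1.64 to 2.79). The calcium channel subunit Cacna1c was at 415 and 813 CPM.

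Immediate early genes, which are induced within minutes by stimulation and also by tissue dissociation, were summed at 21959 and 26572 CPM. Of 23 genes, 5 were 2-fold higher in the Tbx18 line and none was 2-fold lower, with a median of 0.35. Fosb was at 566 CPM (58.2 to 1052 across clusters) and 1276 CPM (162 to 2150), 2.25-fold (2.14 to 2.37) and higher in 6 of 6 clusters, with a log2 ratio of 1.17, or 0.98 without the cells that hold a UMI of another cell type's marker. Its thinned share of cells was 29.4% and 51.2% (54.6% and 72.2% unthinned). In endothelial-like cells the thinned share of Fosb was 50.7% and 69.8%. Nr4a1 was at 99.2 and 203 CPM, and Egr2, Nr4a2 and Maff passed with at most 25 counts each in the Tbx18 line. The most abundant members differed less: Jun was at 6306 and 6488 CPM, Fos at 5129 and 5901 CPM and Egr1 at 1814 and 3065 CPM. Without the cells that hold a UMI of another cell type's marker the median of the list was -0.05. None of 12 heat shock genes was 2-fold apart (median 0.29).

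Short, abundant housekeeping genes leaned to the NG2 line. Of the 79 nuclear genes of oxidative phosphorylation, 52 were lower in the Tbx18 line in all 6 clusters (12.5% of all genes with at least 10 CPM were), with a median of -0.51, yet only Ndufa12 (163 and 75.1 CPM) was past 2-fold. They summed to 22821 and 16029 CPM. Of the 80 ribosomal protein genes, 41 were lower in all 6 clusters, against the same 12.5%, with a median of -0.30, and Rpl35, Rps27, Rpl9 and Rpl10, which share sequence with pseudogenes, were 2-fold higher. Both medians moved toward 0 when ratios were centered on gene length, to -0.15 and 0.08. Of the 13 genes of the mitochondrial genome only mt-Nd6, the single protein gene on its light strand, was past 2-fold, at 61.1 and 159 CPM.

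**Figure D5:**
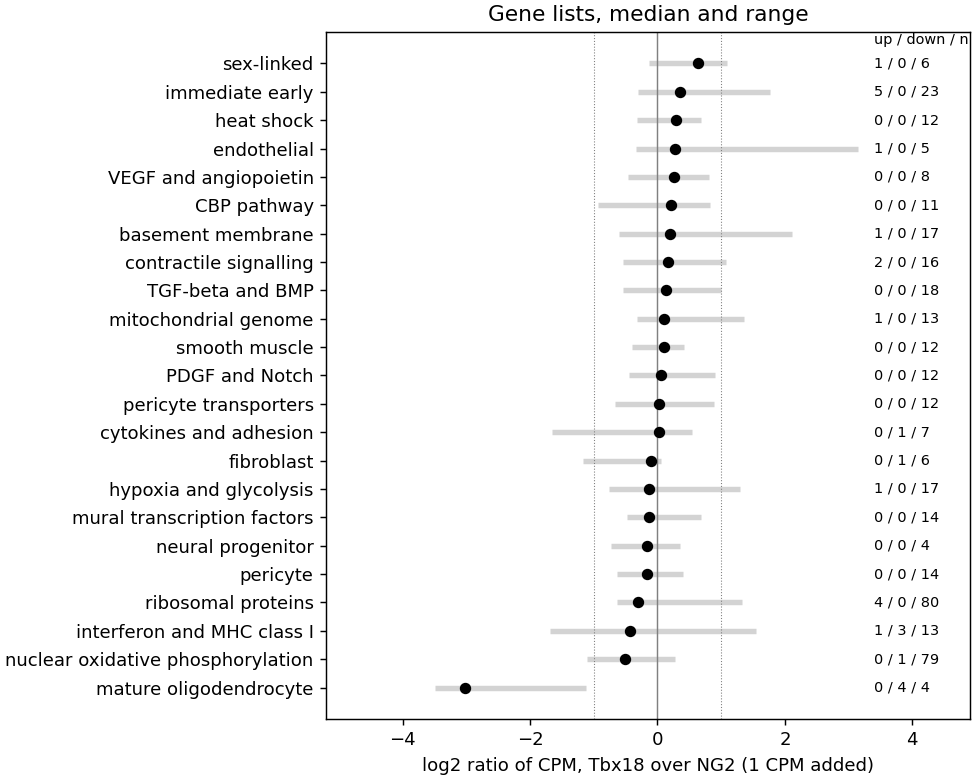
Median (dot) and range (bar) of the log2 ratio of CPM (Tbx18 line over NG2 line, x axis) in each gene list (y axis), over members with at least 10 CPM in the higher library, for lists with 4 or more of them. The numbers at the right are members 2-fold higher, 2-fold lower and all; most medians lie within 0.5 of 0, and the mature oligodendrocyte list stands apart at -3.03.

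Most genes of the immune, hypoxic and progenitor lists were less than 2-fold apart, and the background is again 3.72% of genes 2-fold higher and 2.05% 2-fold lower. The interferon and MHC class I list was above that share on the lower side. Its median was -0.01 once ratios were centered on gene length. Of 13 interferon and MHC class I genes (median -0.43), Ifi27 (176 and 84.3 CPM, 6 of 6 clusters), Tap1 (17.0 and 7.18 CPM) and Ifit3 (12.8 and 3.27 CPM) were 2-fold lower in the Tbx18 line, and H2-Q4 (4.03 and 13.7 CPM) was 2-fold higher. Of 7 cytokine and adhesion genes, Spp1 (osteopontin) was lower, at 96.7 and 30.05 CPM, with its highest NG2 level in cluster 3, at 290 and 14.7 CPM. Of 17 hypoxia and glycolysis genes (median -0.13), only the vasodilator peptide gene Adm passed, at 19.6 and 49.6 CPM, 2.53-fold (1.93 to 3.29). The study also asked whether pericytes act as progenitors, and 4 of 12 neural progenitor genes reached 10 CPM, with none 2-fold apart: Nes was at 159 and 203 CPM, Dbi at 199 and 120 CPM, Vim at 115 and 107 CPM, and Fabp7 at 10.8 and 9.14 CPM. Sox2 had 12 and 0 counts and Mki67 3 and 0, so at the depth of the Tbx18 line, where 3 counts are 1.96 CPM, a difference in these was not detectable. Of 11 genes of the pathway around the coactivator CBP (median 0.22), none was 2-fold apart, and Crebbp, which encodes CBP, was at 235 and 335 CPM.

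Within single clusters, at a limit of 200 CPM, Gm48099 was the largest ratio in each of the 6. It ran from 7.56-fold in cluster 2 (87.9 and 664 CPM) to 21.6-fold in cluster 1 (52.0 and 1120 CPM). The largest ratios in the other direction differed by cluster. Krtcap2 (207 and 70.2 CPM) and Pabpn1 (229 and 86.4 CPM) led in cluster 0, and Ndufs7 (278 and 108 CPM) and Imp3 (351 and 149 CPM) in cluster 2. Dbp led in cluster 5, at 295 and 80.5 CPM, and was second to Ndufb4 (214 and 60.3 CPM) in cluster 8. In cluster 1, Hbb-bs (335 and 0 CPM) came first, a gene found in 0.25% of the NG2 and 1.10% of the Tbx18 pericyte-like cells, and Ifi27 followed at 231 and 74.2 CPM.

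The same contrast could be read in the injured cortex, in libraries that the naïve comparison did not use. These mice received tamoxifen 7 days before injury and were taken 3 days after it, and the injury was physical (saline injected) or ischemic (ET-1 and L-NAME injected). Pericytes were taken as clusters 0, 1 and 2 of the NG2 table and cluster 2 of the Tbx18 table, with 3243 and 226 naïve, 1106 and 433 physical injury and 1085 and 86 ischemic injury cells. By these clusters, 100 of the 110 naïve genes were 2-fold higher and 25 of the 29 were 2-fold lower in the naïve pair. That pair is the same 2 libraries with mostly the same cells, so this overlap was largely set in advance. Of its 226 Tbx18 cells, 205 were also in the comparison above. The 273 Tbx18 pericyte-like cells were spread wider over the Tbx18 table: 75.1% lay in its cluster 2 and 14.7% in its cluster 3. Clusters 1 and 0 held 4.76% and 3.30%. In the paper clusters 3, 1 and 0 of the Tbx18 integration are microglia, smooth muscle cells and endothelial cells. Whether the deposited numbers are those of the published figure was not tested. The listed microglia genes summed to 24.2 CPM in the 273 cells. Of the NG2 pericyte-like cells, 37.6%, 30.4% and 25.5% lay in clusters 0, 1 and 2 of the NG2 table. In the injured pairs the cells of the lines differed more in markers than in the naïve pair. Acta2 was at 20.3 CPM in NG2 and 1615 CPM in Tbx18 cells after physical injury and at 25.7 and 573 CPM after ischemic injury, Cldn5 at 9.71 and 183 CPM and at 3.88 and 446 CPM, and Vtn at 18540 and 7714 CPM and at 17818 and 8131 CPM. The part of these markers in the injured ratios was not tested.

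In all 3 pairs, 90 genes (0.953%) were 2-fold higher and 18 (0.191%) 2-fold lower in the Tbx18 line. Without the cells that hold a UMI of Acta2 or Tagln the numbers were 58 and 22. Of the 110 naïve genes, 71 were higher in both injured pairs (28.2% of all genes with at least 50 CPM were) and 23 by at least 2-fold (1.98%), and 14 were lower in both (41.0%). Of the 29, 19 were lower in both (41.0%) and 6 by at least 2-fold (1.82%). Odf3l1 had 157, 70 and 34 counts in the NG2 naïve, physical and ischemic cells and 0 counts in each Tbx18 library. In the ischemic Tbx18 cells 3 counts are 8.51 CPM, above the 7.33 CPM of Odf3l1 in the NG2 cells, so a difference was not detectable there. Imp3 had log2 ratios of -1.05, -0.81 and -0.69, and Cspg4 itself -0.15, -1.05 and -0.79. Mbp stayed low, at -3.66, -3.13 and -4.80. Gm47283 stayed high, at 2.85, 3.02 and 2.24. Gm48099 was at 3.52, 0.31 and 1.00, and Polr1b at 2.35, -0.09 and 0.91. Cacnb2, a subunit of voltage-gated calcium channels (214 and 560 CPM in naïve cells), had 1.41, 1.46 and 1.68, and the FoxO transcription factor Foxo3 (22.8 and 57.5 CPM) 1.29, 1.30 and 1.69. With the Acta2 and Tagln cells left out these were 1.38, 1.38 and 1.63 for Cacnb2 and 1.26, 1.08 and 1.72 for Foxo3. Of the clock genes, Dbp was at -1.51, 1.02 and -0.63, Nr1d1 at -0.76, 0.09 and -0.16, and Npas2 at 2.20, -1.57 and 1.06. The clock list as a whole had medians of 0.36, 0.61 and 0.16 in the 3 pairs, and whether any ratio differs between conditions was not tested.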

How the data were processed

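The authors deposited UMI counts for each gene in each cell, made with Cell Ranger (7.0.0 in the submitters' processing notes, against GRCm38/mm10) from 10x Genomics 3' libraries. They hold cells that passed the authors' filters on genes, UMIs and mitochondrial transcripts. The study's methods name a range of Cell Ranger versions, so the version used for each library, and whether intron reads were counted, is not given in the sources used here. Cluster numbers come from the authors' Seurat integrations: of both naïve libraries for the main comparison, and of the NG2 line and the Tbx18 line for the injured pairs. Cell type names of clusters rest on marker lists. Neither labels nor methods mention doublets, and no doublet caller was run; leaving out the deepest cells of each library stands among the alternatives. The percent of mitochondrial transcripts was computed here from the deposited counts.

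Counts of the cells of 1 line were summed and divided by all their UMIs (CPM). Log2 ratios are of CPM with 1 CPM added, and a gene was counted as 2-fold apart when it also had at least 50 CPM in the higher library (10 CPM for list members and neighbors, 200 CPM for single clusters). Intervals are exact Poisson for levels, exact conditional binomial for folds and Clopper-Pearson for shares. With 1 library a side no test was made. A gene at 0 was set at a floor of 3 counts in that library. Thinning drew 1000 UMIs a cell and left out shallower cells, 53 in the NG2 and 19 in the Tbx18 line. Cells removed for another cell type's marker hold a UMI of an endothelial, smooth muscle, microglia or oligodendrocyte lineage marker, among them Cldn5, Flt1, Ly6c1, Acta2, C1qa and Ptprz1.

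Genes named are the drivers, the 12 largest ratios each way with the same sign in all 6 clusters (mitochondrial genes, Gm42418 and AY036118 left out; some genes are not reported here and were left out of the lists), of each list its 3 most abundant members and those 2-fold apart, the 2 largest each way per cluster, and genes near the drivers. Other genes named, among them the neighbors under 2-fold, Kcnj8, Higd1b, Notch2, Cacna1c, Dlc1, Camk1d, Cacnb2, Foxo3 and the clock genes, were chosen after values were seen. The cells and the lists were chosen with earlier results of these data known. Centering on gene length and leaving out Acta2 or Tagln cells were added after seeing the data. Gene positions were taken from GENCODE M21 (the release the authors used is not given in the sources used here) and matched 19330 of 19679 genes. The sequences around gene starts use the starts that RefSeq gives, and whether they act as promoters was not tested. On simulated counts of 3931 genes over the 6 clusters, 100% of 4-fold higher and 98% of 4-fold lower genes were recovered. The simulation held counting error alone around 1 shared profile, and a 4-fold change lies well past the 2-fold limit, so this was largely set in advance. It says nothing of differences between animals, sorts or libraries. Software: Python 3.11.15, numpy 2.4.6, pandas 2.3.3, scipy 1.17.1, R 4.3.3 and edgeR 4.0.16 (TMM factors only).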

Additional observations from a re-analysis of the deposited data

Results flagged for a closer look

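Some genes lay on one side in the naïve pair and on the other in both injured pairs. Whether the naïve and injured ratios differ was not tested, since each pair is 1 library a side and the injured Tbx18 cells held more Acta2 and Cldn5. The log2 ratio of Camk1d was 1.70 in naïve cells, -0.49 after physical and -0.46 after ischemic injury. Adm had 1.30, -1.09 and -0.49. Ifit3 had -1.69, 0.93 and 1.79, from 5 counts in the naïve Tbx18 cells. Rpl10, whose reads can be shared with pseudogenes, had 1.03, -0.07 and -0.24. The hemoglobin genes Hbb-bs (-4.15, 2.06 and 2.37) and Hba-a1 (-4.94, 1.87 and 2.97) depend on which cells count as pericytes: by the clusters of the line tables their naïve ratios were -0.48 and 0.44. No group held enough libraries to look for a library that stands apart.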

How the results depend on the processing

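No paired analysis was possible because the naïve comparison has 1 library a side, the labels number no replicates and no result comes from a test; the 3 pairs are different conditions and were set side by side, not fitted as replicates. The count of 2-fold higher genes (110) was 70 with a pseudocount of 10, 227, 25 and 1180 with minimums of 20, 200 and no CPM, 218 in thinned cells, 195 without cells holding another cell type's marker and 65 with ratios centered on gene length. The count of lower genes (29) was 13, 102, 3, 815, 164, 92 and 16 under the same settings, 55 with TMM factors and 19 with NG2 clusters weighted by the Tbx18 composition. List members 2-fold higher (18) became 8 with a pseudocount of 10 and 32 in thinned cells, and lower ones (14) became 8 with a pseudocount of 10 and 9 with the pericytes of the line tables. Without cells holding another cell type's marker the log2 ratio was 0.0101 for Cspg4 and -0.78 for Tbx18. The 90 genes higher in all 3 pairs became 52 with NG2 clusters 0, 1, 2, 8 and 10, and 58 without Acta2 or Tagln cells. Leaving out each cluster in turn gave 100 to 151 higher and 33 to 39 lower genes. Over the alternatives run, all 560 log2 ratios of 35 named genes kept their sign. Most of the 35 were chosen for a large ratio with the same sign in every cluster, so this was largely set in advance. The drivers were counted apart from the 35. The log2 ratio of Cspg4 changed sign, from -0.16 to 0.0101, without cells holding another cell type's marker. Of 444 list medians, 406 kept their sign. No cluster share moved beyond its interval. Except where an alternative removes cells, genes or depth by construction, the cause of a change was not tested. Depth limits the Tbx18 side most: 3 UMIs there are 1.96 CPM, against 0.237 CPM in the NG2 line.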

Other observations

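A pair of genes in the MHC region of chromosome 17 was seen on 1 side only. They were chosen after values were seen. Gm8909, a class I-like gene at chr17:36164443-36168537, had 0 counts in the NG2 and 51 in the Tbx18 pericyte-like cells (33.3 CPM, 6.75 to 56.0 across clusters), at least 140-fold higher. It had 0 and 10 counts in smooth muscle-like and 0 and 2 in endothelial-like cells, and 0 and 11 after physical and 0 and 1 after ischemic injury. The antisense gene BC023719 had 0 and 14 counts, 38.6-fold higher by the same floor. Close relatives of these genes share sequence, so reads can be split between them. In the same region H2-Q4 was at 4.03 and 13.7 CPM, and H2-T22 at 28.4 and 13.1 CPM. Among sex-linked genes, whose level depends on the animals pooled, Xist was at 592 and 542 CPM and Uty at 21 and 45.7 CPM.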
